A study of Mus musculus with 12 samples.

Results

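The genes described here are 8 genes through which the vessel wall starts, restrains and dissolves a blood clot: Vwf, F8, Thbd, Procr, F3, Tfpi, Plat and Plau. They were chosen by symbol, with earlier results of these data known, and all 8 were found among the 27825 genes of the deposited table. Messenger RNA was measured by bulk RNA-seq in sorted endothelial cells. All mice were male ROSA26-eYFP+/+ Cdh5-CreERT2+ animals, so cells in which the Cdh5 promoter was active when tamoxifen was given, and their descendants, carry yellow fluorescent protein in every group. A tamoxifen diet began at 6 weeks of age and lasted 2 weeks. Feeding with normal chow (5.8% fat) or high fat food (60% fat) then started at 8 weeks and continued for 12 to 13 weeks. Cells were released from mesentery, the gut's vessel-bearing membrane, and from epididymal fat, a visceral fat depot, with the transcription blocker actinomycin D in the digest. Each sample pooled 6 mice, and fluorescent cells were then sorted. The 4 groups of 3 libraries, lettered A, B and C, are mesentery on chow, mesentery with high fat feeding, epididymal fat on chow and epididymal fat with high fat feeding. The protocol speaks of a pair of independent replicates while the titles carry 3 letters, so p-values measure the spread between libraries, part of which may be technical.

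As background, thrombosis at the endothelium is governed by opposed sets of proteins. Von Willebrand factor (Vwf) captures platelets and carries factor VIII (F8). Tissue factor (F3) binds factor VII and starts coagulation, and tissue factor pathway inhibitor (Tfpi) blocks that complex. Thrombomodulin (Thbd) turns thrombin into an activator of protein C, an anticoagulant, and the endothelial protein C receptor (Procr) holds protein C close by. Tissue-type and urokinase-type plasminogen activators (Plat and Plau) generate plasmin, which dissolves fibrin. In vessels large and small the resting endothelium is known for high thrombomodulin and little or no tissue factor, while pericytes, adventitial fibroblasts, adipocytes and stimulated monocytes are known sources of tissue factor.

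Values are normalized counts, that is reads divided by a size factor of the library. Library totals ran from 8348897 to 25397963 reads, and 3 reads correspond to between 2.12 and 4.22 normalized counts. The 13 pan-endothelial markers were all present, and Pecam1 read 11417 to 12974 in chow mesentery and 3730 to 6515 in high fat epididymal fat. Cldn5 went the other way, at 555 to 1383 and 12555 to 22263, and Erg, Cdh5 and Esam overlapped between these groups. The summed level of the 13 markers was 127397 to 187015 in chow mesentery and 121387 to 141464 in high fat mesentery. It was 90843 to 109569 in chow epididymal fat and 49868 to 95761 in high fat epididymal fat. RNA of other cells was present as well. Sums of 9 macrophage and leukocyte markers were 1387 to 6726, 3922 to 22121, 4759 to 75362 and 118134 to 291016 in the same order of groups. Sums of 8 fibroblast markers were 6666 to 10114, 4642 to 9742, 18859 to 57798 and 47076 to 62836. Sums of 6 markers of pancreatic acinar cells were 22403 to 149609, 46738 to 86856, 183 to 243 and 357 to 550.0, and all 6 were lower in epididymal fat on either diet. Changes below are log2 differences of log2(normalized count + 1) with their standard error (SE), and a gene counts as changed at a Benjamini-Hochberg adjusted p under 0.05 in limma over 22238 genes.

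More of these genes passed the test between tissues than between diets. Between epididymal fat and mesentery on chow, 3 of 8 genes changed: Vwf and Procr were higher and Thbd was lower in epididymal fat. Over all genes 12.8% changed in that comparison, 7.32% higher and 5.47% lower. The high fat diet groups again gave 3 of 8 genes between the tissues, F3 and Plau higher and Thbd lower in epididymal fat, where 8.34% of all genes changed (4.91% higher and 3.43% lower). With so few members, these counts describe the list and set nothing about it apart from other genes. Fewer cells of a type and less RNA per cell cannot be told apart in bulk samples, here and in every result that follows. The median log2 difference of the 8 genes was 1.01 on chow against -0.08 over all genes tested, and 0.20 against 0.06 with high fat feeding.

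None of the 8 genes changed with diet at the adjusted threshold in limma. In mesentery, 1 gene (Thbd) had an unadjusted p under 0.05, and edgeR and DESeq2 on the recovered whole reads called 0 each. Of the 22238 genes, 0.0135% changed there in limma and 0.0045% in edgeR, DESeq2 called 0.847% of the 18179 genes to which it gave an adjusted p, and limma gave an unadjusted p under 0.05 to 6.15% of its genes. In epididymal fat, 3 genes (F3, Thbd and Tfpi) had an unadjusted p under 0.05, where edgeR called 0 and DESeq2 called 2 (F3 and Tfpi). The shares of the 22238 genes were 0.549% changed in limma, 0.13% in edgeR and 6.94% with an unadjusted p under 0.05 in limma, and DESeq2 called 4.03% of 13545. The difference of the diet effects between the tissues was called for 0 members in limma and edgeR and for 1, F3, in DESeq2, and F3 was the 1 member with an unadjusted p under 0.05. Of the 22238 genes 0.0045% passed that test in limma and in edgeR, and 4.71% had an unadjusted p under 0.05 in limma, while DESeq2 called 0.873% of 15233. Chow and high fat libraries of mesentery were fully separated for 2 members, Thbd and Tfpi, both lower with high fat feeding, beside 9.61% of all genes. For epididymal fat the separation held for 4 members, F3 and Plau higher and Thbd and Tfpi lower, beside 13.5% of all genes. Between tissues the libraries were separated for 5 members on chow, beside 28.7% of all genes, and for 6 members with high fat feeding, beside 26.4%.

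**Figure D1:**
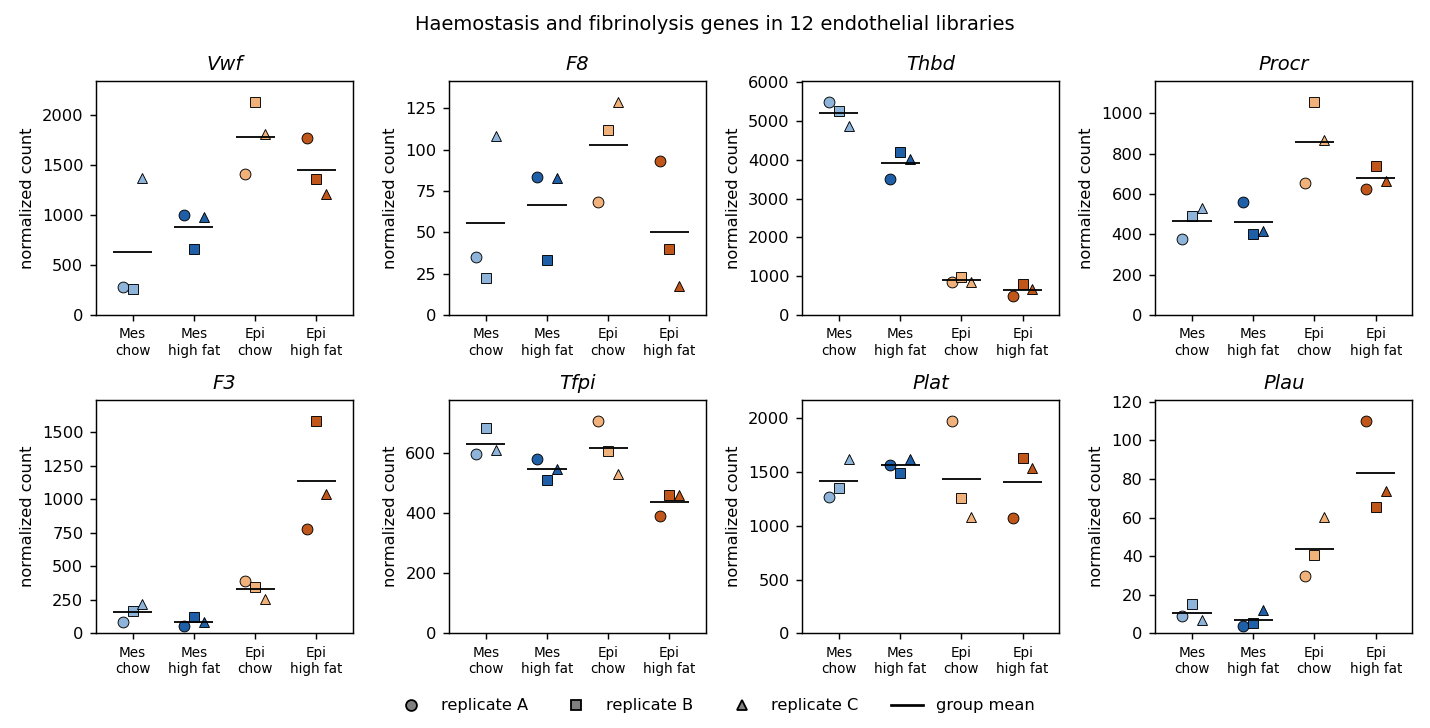
Normalized counts of the 8 genes in each library (points; shapes give the replicate letter) with the group mean (line), on linear axes from 0. Thbd is high in mesentery, between 3496 and 5483, and at most 984 in epididymal fat, while F3 reaches 777 to 1586 in epididymal fat with high fat feeding.

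Vwf (ENSMUSG00000001930), the large multimeric protein that endothelial cells store in Weibel-Palade bodies, read 274, 254 and 1367 normalized counts in chow mesentery replicates A, B and C. High fat mesentery gave 999, 658 and 976. Chow epididymal fat gave 1405, 2122 and 1811, and high fat epididymal fat gave 1763, 1357 and 1210.3. Chow mesentery replicates A and B stood below all other libraries, and replicate C was the only mesenteric library within the range of epididymal fat. By group mean the order was chow epididymal fat (1779 ± 360, SD, n = 3), high fat epididymal fat (1443 ± 286), high fat mesentery (878 ± 190.4) and chow mesentery (632 ± 637). The epididymal groups overlapped each other, as did the mesenteric groups. On chow, Vwf was higher in epididymal fat by 1.94 log2 units (SE 0.49, adjusted p = 0.0186), and the ratio of the means was 2.82. On the high fat diet the tissue difference was 0.72 (SE 0.49, adjusted p = 0.470), with no overlap between the libraries.

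Single libraries bore on the Vwf result. Chow mesentery replicate C, which carries library number 87 where its 2 companions carry 50 and 51, also differed from them in some markers of veins, vessels known for strong Vwf expression, and of lymphatics. The sum of 5 venous markers was 3297, 3699.7 and 4270.2 in chow mesentery A, B and C. Selp, the gene of P-selectin, which shares the Weibel-Palade body with VWF, read 21.6, 21.5 and 522 in chow mesentery A, B and C, and Ackr1, a marker of venules, read 23.9, 66.3 and 373. The venous marker Ephb4 went the other way, at 2793, 3158 and 1963. The sum of 7 lymphatic markers was 1332, 1522 and 13032 in the same libraries, 2818 to 4759 in high fat mesentery, 22667 to 37637 in chow epididymal fat and 11831 to 18154 in high fat epididymal fat. In replicate C the chemokine gene Ccl21a made up 11665 of that sum. The lymphatic markers Reln (15.9, 3.58 and 279) and Mmrn1 (17.1, 18.8 and 105.6) were also highest there. So were Lyve1 (9.11, 34.0 and 69.0) and Pdpn (12.5, 4.48 and 46.5). Prox1 (14.8, 10.8 and 19.7) and Flt4 (941, 953 and 848) were not raised to that extent. The acinar sum was 22403 in replicate C against 149609 and 117869 in A and B. The part of these cell types in the Vwf result was not tested. Without that library the chow tissue difference was 2.73 (adjusted p = 1.89e-05), the diet difference in mesentery rose from 0.91 (SE 0.49, adjusted p = 0.868) to 1.70 (adjusted p = 0.0253), and the difference of the diet effects went from -1.21 (adjusted p = 1.00) to -2.003 (adjusted p = 0.0499). Without chow mesentery replicate A, chow mesentery replicate B or chow epididymal replicate B, the chow tissue difference no longer passed (adjusted p = 0.0923, 0.0795 and 0.0780). It was also lost with only the 2 groups compared in the fit (0.0748), without a mean-variance trend (0.0659) and in edgeR (0.0806). Among libraries numbered 50 to 53 the chow tissue difference of Vwf was 2.704 and the mesenteric diet difference 1.597, whereas the libraries numbered 87 and 88 gave 0.41 and -0.45 with 1 library a group.

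**Figure D2:**
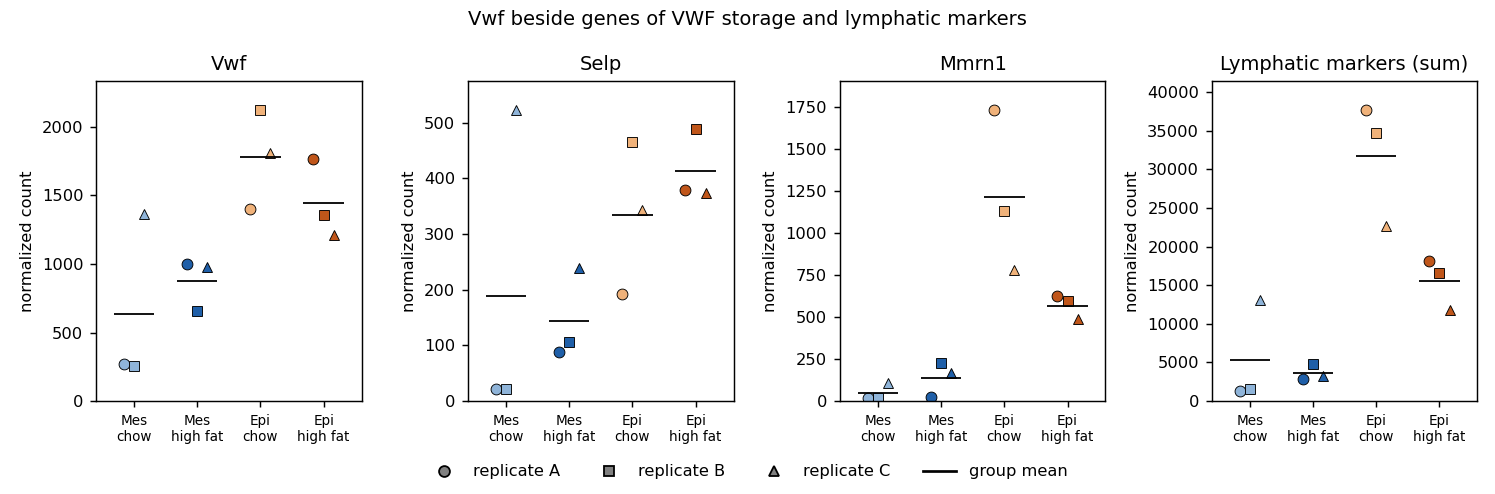
Normalized counts per library (points) and group means (lines) of Vwf, Selp, Mmrn1 and the sum of 7 lymphatic markers, on linear axes from 0. Chow mesentery replicate C stands at 1367 for Vwf, 522 for Selp and 13032 for the lymphatic sum, above its 2 companions in each.

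Platelets also carry VWF protein. Of 8 platelet and megakaryocyte markers 7 were in the table, and their sum was 126 to 239 in chow mesentery, 188 to 389 in high fat mesentery, 854 to 3562 in chow epididymal fat and 2316 to 5467 in high fat epididymal fat. Pf4, a gene also found in macrophages, was the most abundant of them in each epididymal library. Of the 3 abundant enough to test, with a median log2 difference between tissues of 3.16 on chow and 3.64 with high fat feeding, 1, Pf4, was higher in epididymal fat in each. The platelet chemokine gene Ppbp read 0 to 51.1 in mesentery and 128 to 181 in epididymal fat, and the integrin gene Itga2b 15.9 to 60.8 and 55.6 to 98.3. Gp9, a subunit of the platelet receptor for VWF, was at 0 in all 3 chow mesentery libraries and reached at most 34.8 elsewhere. The part of platelets in the Vwf result was not tested.

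F8 (ENSMUSG00000031196) encodes factor VIII, the cofactor that VWF carries in plasma, and was scarce. It read 35.3, 22.4 and 108 in chow mesentery, 83.2, 33.3 and 83.0 in high fat mesentery, 68.1, 112 and 129 in chow epididymal fat, and 93.3, 39.6 and 17.7 in high fat epididymal fat. Each pair of groups compared overlapped. The diet difference in epididymal fat was -1.27 (SE 0.69, 95% interval -2.77 to 0.22, adjusted p = 0.876), and no other F8 difference passed in limma either, with adjusted p between 0.342 and 1.00. Reads of genes not expected in endothelium were high in some of the libraries with high F8, but not in all. Reads of 645 olfactory and vomeronasal receptor genes were 0.301% of all reads in chow mesentery replicate C, 0.189% in chow epididymal replicate C and 0.203% in high fat epididymal replicate A, the libraries with the highest F8 of their groups, against 0.0246%, 0.0117% and 0.0169% in replicate B of those groups. Chow epididymal replicate B, however, had an F8 of 112 at its 0.0117%, and high fat mesentery A and C had like F8 values at 0.0579% and 0.186%. Its part in the F8 values was not tested. The ratio of Vwf to F8 normalized counts ran from 7.77 to 12.6 in chow mesentery and from 18.9 to 68.4 in high fat epididymal fat.

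Thrombomodulin had the lowest adjusted p of the 8 genes in both tissue comparisons. Thbd (ENSMUSG00000074743), the thrombin receptor that redirects thrombin from fibrinogen to protein C, read 5483, 5261 and 4878 in chow mesentery and 3496, 4199 and 4032 in high fat mesentery. Epididymal fat gave 843, 984 and 849.7 on chow and 474, 786 and 679 with high fat feeding. No epididymal library came near any mesenteric library. The log2 difference of epididymal fat from mesentery was -2.55 on chow (SE 0.19, adjusted p = 3.90e-06) and -2.62 with high fat feeding (SE 0.19, adjusted p = 3.28e-06). The group means differed 5.84-fold and 6.05-fold. Both calls held under each of the 21 alternatives computed for them, including a rescaling of each library to its pan-endothelial markers, which gave -2.10 and -1.79. Of those 13 markers, 7 were themselves lower in epididymal fat on chow and 9 with high fat feeding, and 1 was higher in each.

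With diet Thbd did not pass in either tissue. The 3 high fat libraries lay under the 3 chow libraries in mesentery (-0.42, SE 0.19, 95% interval -0.82 to -0.01, adjusted p = 0.793) and in epididymal fat (-0.49, SE 0.19, 95% interval -0.90 to -0.09, adjusted p = 0.481). The order of the groups was thus chow mesentery, high fat mesentery, chow epididymal fat and high fat epididymal fat, with no overlap between neighbours. When libraries were rescaled to the pan-endothelial markers, whose sum was lowest in high fat epididymal fat, the epididymal diet difference of Thbd became 0.06, while the median of all genes moved from 0.10 to 0.63. The difference of the diet effects was -0.08 (95% interval -0.65 to 0.50).

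Procr (ENSMUSG00000027611), which holds protein C close to thrombomodulin, went the other way between tissues. It read 377, 489 and 529 in chow mesentery, 562, 399 and 418 in high fat mesentery, 653, 1056 and 868 in chow epididymal fat and 626, 742 and 664 in high fat epididymal fat. All 6 epididymal libraries were above all 6 mesenteric libraries, while the diet groups overlapped within each tissue. Procr was higher in epididymal fat by 0.87 on chow (SE 0.22, adjusted p = 0.0191; ratio of means 1.85) and by 0.57 with high fat feeding (SE 0.22, adjusted p = 0.141). The chow call was lost without chow mesentery replicate A (adjusted p = 0.0942), without chow epididymal replicate B (0.104), with only the 2 groups compared in the fit (0.0546) and without a mean-variance trend (0.0607). Diet differences were -0.02 in mesentery (95% interval -0.49 to 0.45) and -0.32 in epididymal fat (95% interval -0.79 to 0.15).

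Because both partners of the protein C pathway shifted between tissues in opposite directions, their ratio separated the tissues widely. Thbd exceeded Procr 9.22- to 14.5-fold in normalized counts in chow mesentery and 6.22- to 10.5-fold in high fat mesentery. In epididymal fat the ratio was 0.933 to 1.29 on chow and 0.758 to 1.06 with high fat feeding. The ratio describes the libraries and was not tested.

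Tissue factor had the largest diet difference of the 8 genes on the log2 scale. F3 (ENSMUSG00000028128) read 388, 342 and 257 in chow epididymal fat and 777, 1586 and 1037 in high fat epididymal fat, a ratio of means of 3.44 with no overlap. Mesentery gave 84.3, 166 and 222 on chow and 55.2, 121 and 83.0 with high fat feeding, and these overlapped. In epididymal fat the diet difference was 1.74 (SE 0.39, 95% interval 0.90 to 2.57) with an unadjusted p of 0.000603 and an adjusted p of 0.0761, so it missed the threshold in limma. The adjusted p was 0.00103 in DESeq2 and 0.146 in edgeR, and it was under 0.05 in 6 of 21 alternatives, over which it ran from 0.00101 to 0.355. The mesenteric diet difference was -0.82 (SE 0.39, 95% interval -1.66 to 0.01, adjusted p = 0.824). The difference of the diet effects was 2.56 (SE 0.55, 95% interval 1.38 to 3.74) with an unadjusted p of 0.000427 and an adjusted p of 0.285.

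Between tissues F3 was higher in epididymal fat in each library on either diet. On the high fat diet the difference was 3.71 (SE 0.39, adjusted p = 7.04e-05) and the ratio of means 13.1, which held under all 21 alternatives. On chow it was 1.15 (SE 0.39, adjusted p = 0.0721; under 0.05 in 6 of 21 alternatives) and the ratio of means 2.09. That chow value was 1.62 among libraries numbered 50 to 53 and 0.21 in those numbered 87. By group mean the order was high fat epididymal fat (1133 ± 413, SD, n = 3), chow epididymal fat (329 ± 66.5), chow mesentery (157 ± 69.5) and high fat mesentery (86.3 ± 32.8), and only the mesenteric groups overlapped.

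Markers of several other cell types differed between the same groups as F3. The fibroblast marker Lum, which encodes the matrix proteoglycan lumican, read 6455 to 7409 in high fat epididymal fat, 972 to 1974 in chow epididymal fat and 68.3 to 238 in mesentery. Of the 8 fibroblast markers, 8 were higher in epididymal fat with high fat feeding, 7 on chow, and 2, Lum and the collagen gene Col3a1, rose with the diet in epididymal fat. Col1a1, Col1a2, Pi16 and Dpt were also higher there with high fat feeding, without overlap, but did not pass. Dpt, for example, read 443 to 626 on chow and 1955 to 2199 with high fat feeding. Pdgfra and Dcn did not follow F3 there. Pdgfra read 1013, 512 and 178 on chow and 210.2, 244 and 277 with high fat feeding. Dcn, which made up most of the fibroblast sum in each library, read 50685, 35230 and 15369 against 27526, 43559 and 38796. Of 8 smooth muscle and pericyte markers, 6 were higher in epididymal fat on chow and 3 with high fat feeding, and 0 changed with diet there in limma (median log2 difference -0.91). Their sum was 12301 to 22484 in chow and 5967 to 11955 in high fat epididymal fat, against 1325 to 3848 in mesentery. Of 7 adipocyte markers, 6 were higher in epididymal fat on chow and 0 with high fat feeding, and 3 (Adipoq, Cfd and Retn) fell with the diet in epididymal fat. The adipocyte sum was 373761 to 592415 in chow and 323349 to 479122 in high fat epididymal fat, against 117272 to 167485 in mesentery. Fabp4 made up most of it, at 299542 to 506767 in chow and 319411 to 465212 in high fat epididymal fat. Adipoq read 5585 to 7465 in chow and 526 to 1951 in high fat epididymal fat, against 398 to 1314 in mesentery. Lep did not fall in this way, at 924 to 1136 in chow and 467 to 1531 in high fat epididymal fat. The macrophage and leukocyte sum was 118134 to 291016 in high fat epididymal fat, and 5 of its 9 markers were higher there than in high fat mesentery. Chow epididymal replicate B had a macrophage sum of 75362, against 7539 and 4759 in A and C, while its F3 of 342 lay between theirs. The part of these cell types in the F3 result was not tested.

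**Figure D3:**
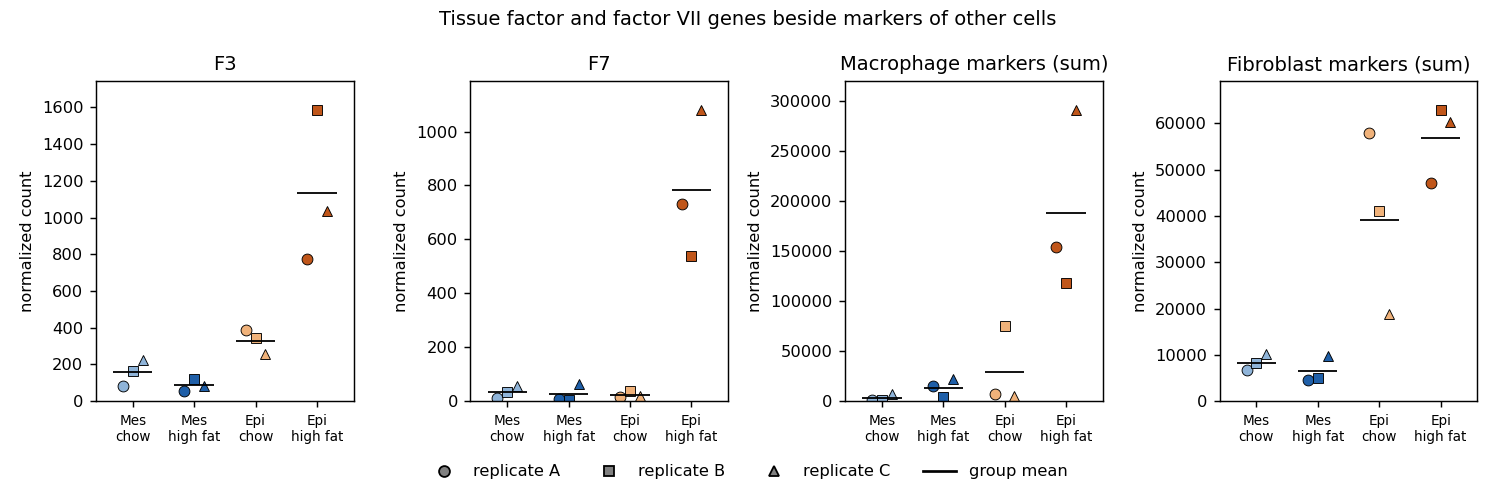
Normalized counts per library (points) and group means (lines) of F3, F7, the sum of 9 macrophage and leukocyte markers and the sum of 8 fibroblast markers, on linear axes from 0. High fat epididymal fat is highest for F3, F7 and the macrophage sum, and 1 chow epididymal library is above the other chow libraries in the macrophage sum. Dcn makes up most of the fibroblast sum.

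Tfpi (ENSMUSG00000027082), the inhibitor of the complex of tissue factor and factor VII, varied less between the groups than F3 did. It read 597, 683 and 609.6 in chow mesentery and 581, 509 and 546 in high fat mesentery. Epididymal fat gave 706, 607 and 531 on chow and 391, 458 and 459 with high fat feeding. High fat epididymal libraries were below all 9 others. The epididymal diet difference was -0.49 (SE 0.17, 95% interval -0.86 to -0.12, unadjusted p = 0.0128, adjusted p = 0.367); DESeq2 gave an adjusted p of 0.0461, and rescaling to the pan-endothelial markers gave 0.06. In mesentery the diet difference was -0.21 (95% interval -0.57 to 0.16), and the tissue differences were -0.04 on chow and -0.32 with high fat feeding, with adjusted p of 0.914 and 0.313.

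The ratio of F3 to Tfpi normalized counts in a library was 0.141 to 0.365 in chow mesentery, 0.0950 to 0.237 in high fat mesentery, 0.485 to 0.564 in chow epididymal fat and 1.99 to 3.46 in high fat epididymal fat. The ratio of Thbd to F3 was 21.9 to 65.1, 34.8 to 63.4, 2.17 to 3.30 and 0.496 to 0.655 in the same order. Both ratios placed the 3 high fat epididymal libraries outside the range of the other 9. A ratio within a library is free of that library's scaling, but it describes unequal change and not which gene moved.

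**Figure D4:**
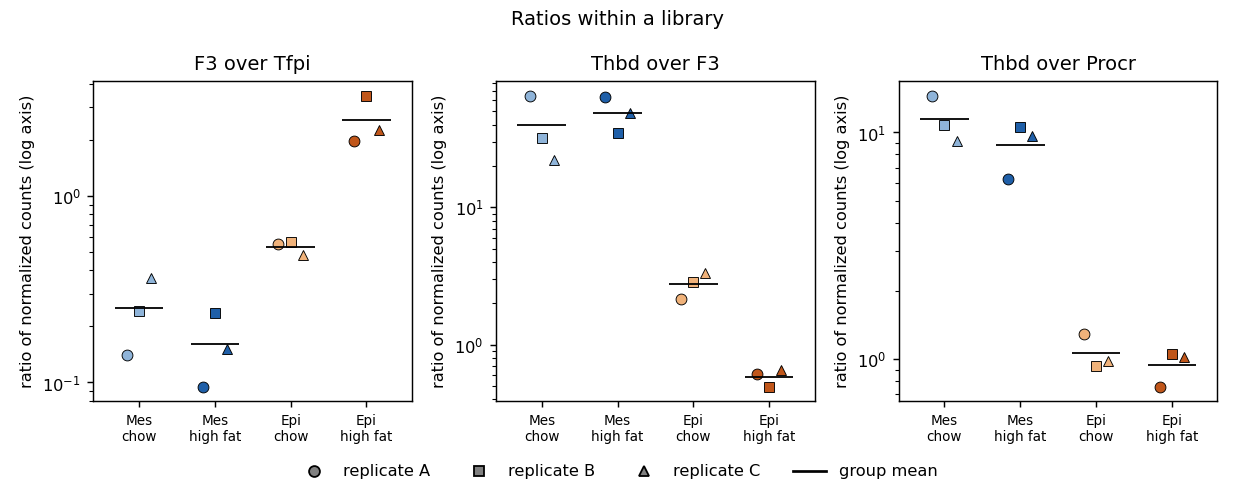
Ratios of normalized counts within each library (points) with the mean of the ratios (lines), on log axes: F3 over Tfpi, Thbd over F3 and Thbd over Procr. F3 over Tfpi is 1.99 to 3.46 in high fat epididymal fat and at most 0.564 elsewhere.

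Promoter windows were looked up for the 8 genes in RefSeq's table on GRCm38.p6, a build older than the mm39 that the submitters' processing notes name. The table matched 4 genes: F3, Procr, Tfpi (with 2 starts) and F8. The 250 bases before the start are shown for F3 and Tfpi, the activator and inhibitor whose ratio is given above, and for Procr, a gene of the protein C pathway. F3 lies on the plus strand (window chr3:121723287-121723536), Tfpi on the minus strand (chr2:84476760-84477009, the farther upstream start) and Procr on the plus strand (chr2:155750967-155751216). Capitals mark 4 motifs, each searched on both strands. The GC box was searched as GGGCGG and the CACCC box by the letters of its name. The TATA box was searched as TATAAA, and the motif of the transcription factor AP-1 as TGANTCA.
F3: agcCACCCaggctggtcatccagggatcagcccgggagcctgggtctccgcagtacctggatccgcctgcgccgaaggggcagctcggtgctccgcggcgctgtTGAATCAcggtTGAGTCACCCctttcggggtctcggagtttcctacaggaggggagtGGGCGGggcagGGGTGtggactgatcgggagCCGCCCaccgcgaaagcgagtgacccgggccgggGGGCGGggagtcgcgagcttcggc
Tfpi: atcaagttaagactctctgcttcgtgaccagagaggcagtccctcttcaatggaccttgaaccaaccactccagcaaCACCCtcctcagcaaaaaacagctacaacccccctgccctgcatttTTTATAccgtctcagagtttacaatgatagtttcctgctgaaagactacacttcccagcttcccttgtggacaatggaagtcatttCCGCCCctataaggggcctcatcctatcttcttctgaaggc
Procr: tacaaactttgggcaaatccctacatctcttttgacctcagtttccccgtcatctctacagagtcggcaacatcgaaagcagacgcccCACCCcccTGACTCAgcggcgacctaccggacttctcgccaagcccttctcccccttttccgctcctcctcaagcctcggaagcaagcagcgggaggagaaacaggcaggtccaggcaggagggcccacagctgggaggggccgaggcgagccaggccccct

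The F3 window held 3 GC boxes, 3 CACCC boxes, 2 AP-1 motifs and 0 TATA boxes. Its AP-1 motifs begin at -146 and -135 from the start, and the second shares 2 bases with a CACCC box. The Tfpi window shown held 1 GC box, 1 CACCC box and 1 TATA box on the other strand. The window of the other Tfpi start held 1 GC box, 1 CACCC box and 0 TATA boxes, the F8 window held 0 of all 4 motifs, and Procr 1 CACCC box and 1 AP-1 motif. Among 32851 promoter windows of the same length, 32.7% held a GC box, 52% a CACCC box, 12.4% a TATA box and 6.75% an AP-1 motif. These matches describe letters in the windows and nothing about factors bound there.

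The plasminogen activators behaved unlike each other. Plat (ENSMUSG00000031538), the activator that endothelial cells release and that acts on fibrin, read 1271, 1353 and 1622 in chow mesentery, 1565, 1494 and 1625 in high fat mesentery, 1977, 1255 and 1083 in chow epididymal fat and 1069, 1632 and 1534 in high fat epididymal fat. All 4 groups overlapped. The diet difference was 0.15 in mesentery (95% interval -0.35 to 0.64) and -0.0016 in epididymal fat (-0.50 to 0.49). Tissue differences were -0.02 on chow (-0.51 to 0.48) and -0.17 with high fat feeding (-0.66 to 0.33). These intervals bound each change of Plat at less than 1 log2 unit under the deposited scaling.

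Plau (ENSMUSG00000021822), the activator that works at cell surfaces through its receptor Plaur, was near the floor in mesentery. It read 9.11, 15.2 and 7.04 in chow mesentery and 3.74, 5.54 and 11.9 in high fat mesentery, a handful of reads per library. Epididymal fat gave 29.8, 40.8 and 60.3 on chow and 110.2, 65.2 and 73.6 with high fat feeding. No epididymal library overlapped a mesenteric one, and the diet groups of epididymal fat did not overlap either. Plau was higher in epididymal fat with high fat feeding by 3.48 (SE 0.68, adjusted p = 0.00705; ratio of means 11.8), and on chow the difference was 1.97 (SE 0.68, adjusted p = 0.0792; ratio of means 4.17). The epididymal diet difference was 0.93 (SE 0.68, 95% interval -0.54 to 2.40). The fibroblast markers named beside F3 also differed between the tissues. Within chow epididymal fat their sum (57798, 40969 and 18859 in A, B and C), most of it Dcn, ran opposite to Plau. Lum (1974, 1400 and 972) ran opposite there too, while Pi16 (137, 144 and 205) ran with Plau. Over the 12 libraries Lum was the gene closest to Plau (r = 0.957). The part of fibroblasts in this result was not tested. The ratio of Plat to Plau normalized counts ran from 88.8 to 418 in the mesenteric libraries and from 9.70 to 66.4 in the epididymal ones.

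**Figure D5:**
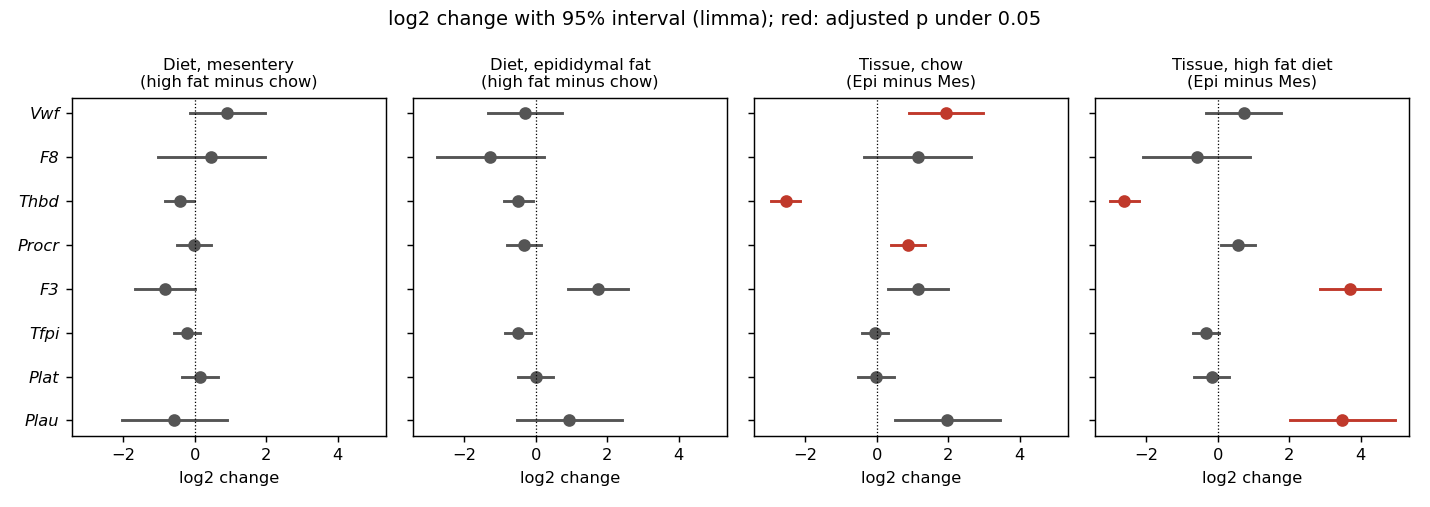
log2 changes of the 8 genes in 4 comparisons (points) with 95% intervals (lines) from limma; red marks an adjusted p under 0.05. Red points are Vwf, Thbd and Procr for tissue on chow and Thbd, F3 and Plau for tissue with high fat feeding, and neither diet comparison has one.

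Set per kilobase of exon, the mean levels of the 8 genes ranked differently in each group, in part within the spread of the libraries. The length used joins all annotated exons of a gene, such as 6241 bases for Plat and 16064 for Vwf. It can exceed the length of the messenger RNA, which would lower a gene's place. The order depends on this choice, and no other length was tried. Chow mesentery was led by Thbd at 1399 normalized counts per kilobase, followed by Procr (229), Plat (227), Tfpi (115), F3 (62.3), Vwf (39.3), F8 (5.59) and Plau (4.42). High fat mesentery was also led by Thbd (1050.0), with F3 at 34.1 in sixth place. The libraries of F3 (21.8 to 47.7) overlapped those of Vwf (41.0 to 62.2) there, and the same genes overlapped in chow mesentery. That place of F3 is thus within the spread. In chow epididymal fat Procr (423) was above Thbd (239.7), Plat (230.4) and F3 (130.3). High fat epididymal fat had F3 at the top with 448, above Procr (333), Plat (226), Thbd (174), Vwf (89.8), Tfpi (79.8), Plau (35.1) and F8 (5.07). In that group the libraries of F3 (307 to 627) and Procr (308 to 365) overlapped, so their order is within the spread. In chow mesentery Procr and Plat likewise overlapped, and Thbd, at 1310 or more, stood above every other member in each library.

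Beyond the 8 genes, 52 genes of the same pathways were listed, of which 48 were in the table and 38 were abundant enough to test. F11, F12, Fga and Serpina10 were not among the genes analysed here. With diet, 0 of 38 changed in mesentery in limma, edgeR and DESeq2, and 2 had an unadjusted p under 0.05 in limma. In epididymal fat 1 rose in limma, against 0 called by edgeR and 3 by DESeq2, and 9 had an unadjusted p under 0.05 in limma. Over all genes 6.15% had such a p in mesentery and 6.94% in epididymal fat. Limma called 0.0135% and 0.549% of all genes, and edgeR 0.0045% and 0.13%. DESeq2 called 0.847% and 4.03% of the genes to which it gave an adjusted p. Between tissues on chow 4 were higher and 1 lower in epididymal fat, and high fat feeding gave 6 higher and 2 lower. Over all genes 7.32% were higher and 5.47% lower on chow, and 4.91% and 3.43% with high fat feeding. On chow 5 of 38 is near that background. With high fat feeding 8 of 38 were called, beside 8.34% of all genes, and the list was not tested as a set. The short lists below are to be read beside these shares. The median log2 difference of the 38 was 0.18 and 0.17 for diet in mesentery and epididymal fat, and 0.29 and 0.45 for tissue on chow and with high fat feeding. The medians over all genes tested were -0.0023, 0.10, -0.08 and 0.06 in the same order.

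The pathway gene that rose with diet was F7, encoding factor VII, the plasma protease that tissue factor binds. F7 read 15.7, 37.4 and 20.4 in chow epididymal fat and 731, 539 and 1079 in high fat epididymal fat, and 2.77 to 64.2 in mesentery. The rise was 4.98 (SE 0.88, adjusted p = 0.0237), and in high fat libraries F7 was 5.88 higher in epididymal fat than in mesentery (SE 0.88, adjusted p = 0.00120). The diet call held in 14 of 21 alternatives, with adjusted p up to 0.197. It was lost without chow epididymal replicate A (0.151) or C (0.0749) and without high fat epididymal replicate A (0.110) or C (0.197). It was also lost in edgeR (0.0633), without a mean-variance trend (0.154) and among libraries numbered 50 to 53 (0.187). F10, the substrate of the same complex, read 0, 55.6 and 23.5 in chow and 212, 138 and 372 in high fat epididymal fat, a difference of 4.32 that did not pass (SE 1.18, adjusted p = 0.177). The macrophage and leukocyte sum was also higher with high fat feeding in epididymal fat. In mesentery it was 1387 to 6726 on chow and 3922 to 22121 with high fat feeding, while the F7 diet difference was -1.22 (SE 0.88). Chow epididymal replicate B, with a sum of 75362, had the highest F7 and F10 of its group, at 37.4 and 55.6. Both lay far below the high fat epididymal values. The part of macrophages in these values was not tested.

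Among the other pathway genes, those of VWF storage and release gave 2 of 11 higher in epididymal fat on chow, beside 7.32% of all genes. With high fat feeding 1 of 11 was higher there than in mesentery, beside 4.91%. Mmrn1, a multimeric protein of platelets and lymphatic endothelium and a lymphatic marker here too, was higher by 5.10 (SE 0.76, adjusted p = 0.000734), from 17.1 to 105.6 in mesentery to 779 to 1734. Cd63, a tetraspanin of Weibel-Palade bodies and of lysosomes in many cells, was higher by 3.15 on chow and 3.84 with high fat feeding (adjusted p = 0.000405 and 0.000122). Selp did not pass in any comparison. The export and vitamin K cycle genes Lman1, Mcfd2, Ggcx and Vkorc1 gave 0 of 4 in each of 5 comparisons.

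In the coagulation factor list F13a1, the fibrin cross-linking subunit that macrophages also make, was higher in epididymal fat by 2.96 on chow (SE 0.87, adjusted p = 0.0392) and 3.41 with high fat feeding (SE 0.87, adjusted p = 0.0283). The chow call was lost without chow mesentery A or B or chow epididymal A or B (adjusted p up to 0.182). It was also lost in edgeR (0.0764), without a mean-variance trend (0.103) and with only the 2 groups compared in the fit (0.057). The high fat call was lost without high fat mesentery A or B or high fat epididymal C (up to 0.147). It was lost as well in edgeR (0.0983), without a trend (0.0917) and among libraries numbered 50 to 53 (0.0577). The highest chow epididymal value of F13a1, 1130, was in replicate B, the library with the high macrophage sum.

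Of the anticoagulant proteins, 1 of 5 tested was lower in epididymal fat on each diet. Over all genes 5.47% were lower on chow and 3.43% with high fat feeding. Entpd1, the ectonucleotidase CD39 that removes platelet-activating ADP, was lower in epididymal fat by -1.45 on chow (SE 0.21, adjusted p = 0.000586) and -0.99 with high fat feeding (SE 0.21, adjusted p = 0.0109). Its chow mesentery libraries read 2317 to 3041 and its chow epididymal libraries 811 to 1165. The high fat call was lost on rescaling to the pan-endothelial markers, at -0.16, without high fat mesentery replicate B (adjusted p = 0.0635), without a mean-variance trend (0.0562) and in edgeR (0.0604). The thrombin receptor gene F2r was lower in epididymal fat with high fat feeding by -1.47 (SE 0.24, adjusted p = 0.00219), 288 to 428 against 743 to 1164 in mesentery, and did not pass on chow (-0.63, adjusted p = 0.107). Rescaling to the pan-endothelial markers took the F2r high fat value to -0.63 (adjusted p = 0.103).

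Between tissues, fibrinolysis genes gave 1 of 8 tested higher in epididymal fat on chow, beside 7.32% of all genes. With high fat feeding 3 of 8 were higher there than in mesentery, beside 4.91%. Lrp1, a receptor that takes up plasminogen activators among many other ligands, was higher by 3.95 (SE 0.44, adjusted p = 8.54e-05) and 2.79 (SE 0.44, adjusted p = 0.00183). Anxa2 and S100a10 together form a docking site for plasminogen and Plat on the cell surface. On the high fat diet both were higher in epididymal fat than in mesentery, by 1.04 and 0.99 (adjusted p = 0.0121 and 0.0124). Their diet differences in epididymal fat, 1.04 and 0.54, did not pass (adjusted p = 0.0620 and 0.507). Both tissue calls were lost without high fat mesentery replicate B (adjusted p = 0.0605 and 0.0631) or high fat epididymal replicate C (0.0682 and 0.0720). That of S100a10 was also lost without high fat mesentery replicate A (0.0552) and with libraries rescaled to equal totals (0.0642). That of Anxa2 was also lost with TMM scaling (0.0534) and with only the 2 groups compared in the fit (0.0728).

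The genes whose levels ran closest with each member over the 12 libraries were ranked by Pearson's r of log2 values among 9876 genes (mean 100 or more). These 12 points share groups, libraries and depth, so r is a description. Thbd ran closest with Sox18 (0.990), Klhl5 (0.990) and Osmr (0.989); Sox18 is an endothelial transcription factor, with means of 12357 in chow mesentery and 3151 in high fat epididymal fat. F3 ran with C3 (0.962), the central complement protein, Lum (0.936) and Fstl1 (0.934). Plau ran with Lum (0.957), Clec3b (0.952), which encodes the plasminogen-binding protein tetranectin, and Ctsk (0.951). Vwf ran with Chp2 (0.952), Mir99ahg (0.948) and Gucy1a1 (0.948), and Procr with Cog7 (0.938), Tmem158 (0.933) and Spon2 (0.929). Tfpi ran with Il15ra (0.949), Pgrmc2 (0.935) and Nrbp2 (0.921). For F8 and Plat the closest values were lower, at 0.878 for Mpp7 and 0.897 for Tmem241.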

How the data were processed

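The authors deposited 1 table of normalized counts per gene for 12 libraries, a signal that is never negative, per the file headers. The submitters' processing notes name STAR 2.7.9a, featureCounts, Subread, DESeq2 1.34.0 and mm39; the annotation and use of strand are not given in the sources used here. The reference at hand is GRCm38, so gene coordinates are not given, and exon lengths were taken from GENCODE on that build by Ensembl identifier. All values (100%) were whole reads times 1 step per library (tolerance 1e-06), so whole reads were recovered for edgeR 4.0.16 and DESeq2 1.42.0. No column of other samples was present.

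Groups, letters and library numbers came from titles and descriptions. Differences were tested with lmFit and eBayes (trend) of limma 3.58.1 under R 4.3.3 on log2(normalized count + 1), with a mean per group over 12 libraries and genes with a mean of at least 10; it was tested on simulated data. P-values were adjusted over 22238 genes within each of 5 contrasts. Intervals cover 95%; floors of 3 reads cover counting error only. Pairing was looked at by the correlation of deviations from group means. By library number, 5 of 6 chow and 2 of 6 high fat libraries correlated best with their own number. By letter, 3 of 6 mesenteric and 0 of 6 epididymal libraries did so with their own letter. With this mixed result, blocks are alternatives. The 8 genes, pathway lists and marker lists were chosen with earlier results of these data known. Named pathway genes are those called in a diet contrast, up to 4 called each way per tissue contrast with a group mean of at least 100, and the 3 genes most like each member; F10, Selp and others named without a call were chosen after their values were seen. Alternatives changed the pseudocount, filter, scaling, libraries in the fit, block, weights and tool, and left out each library in turn.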

Additional observations from a re-analysis of the deposited data

How the results depend on the processing

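Of 5 counts of members called, the count for tissue with high fat feeding stayed within 1.5 times its value of 3, and Thbd in both tissue comparisons and F3 with high fat feeding passed in all 21 alternatives computed for each; Plau with high fat feeding passed in the 20 that tested it, its mean being under the filter of 50. Counts that moved were these. Diet in mesentery (0 members) gave 2 with array quality weights, a fit that did not converge and put most weight on 1 library, and 0 to 1 leaving out each library (1 without chow mesentery replicate C). Diet in epididymal fat (0) gave 1 with a filter at a mean of 50, 1 with rescaling to pan-endothelial markers, 1 with only the groups compared, 1 with the letter as a replicate block, 4 with array weights and 2 with DESeq2. Tissue on chow (3) gave 5 with pan-endothelial rescaling, 1 with only the groups compared, 6 with array weights and 1 to 4 leaving out each library (1 without chow mesentery replicate A or chow epididymal replicate B). The difference of the diet effects (0) gave 3 with array weights, 1 with DESeq2 and 0 to 1 leaving out each library (1 without chow mesentery replicate C). The cause was not tested.

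Over all genes, array weights called 1489, 2340, 15123, 4581 and 742 genes for the 5 comparisons, DESeq2 154, 546, 3927, 2931 and 133, and edgeR 1, 29, 1984, 1021 and 1, against 3, 122, 2843, 1854 and 1 in limma. Limma without a trend called 1 gene for diet in epididymal fat, and the libraries numbered 50 to 53 alone gave 31. Leaving out a library gave 23 to 168 genes for diet in epididymal fat, 1516 to 3278 for tissue on chow and 728 to 1741 with high fat feeding. Pan-endothelial rescaling moved the median of all genes to 0.15, 0.63, 0.34, 0.86 and 0.50 and the called tissue genes to 3831 higher and 507 lower on chow and 6412 and 246 with high fat feeding; equal totals gave 1947 and 947, and 703 and 1286, against 1627 and 1216, and 1092 and 762.

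Replicate blocks: library numbers as a block gave 4 members for tissue on chow (F3 in addition, adjusted p = 0.0490), 3 with high fat feeding and 0 for the difference, and 2816 and 1890 genes for tissue; the letter as a block gave 0 members in mesentery and 1 (F3, adjusted p = 0.0487) in epididymal fat. Correlations of same-number deviations were 0.03, 0.53 and 0.58 on chow and -0.15, 0.15 and -0.12 with high fat feeding. On chow 5 of 6 libraries correlated best with their own number, and with high fat feeding 2 of 6 did. Whether libraries of the same number share mice is not stated in the sources used here, and these values do not settle it.

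Directions that reversed all belong to differences not called under the deposited scaling. With pan-endothelial rescaling these were, for diet in epididymal fat, Vwf 0.25, Thbd 0.055, Procr 0.23, Tfpi 0.058 and Plat 0.55; for diet in mesentery, Procr 0.14; for tissue on chow, Tfpi 0.41 and Plat 0.43; for tissue with high fat feeding, F8 0.23, Tfpi 0.51 and Plat 0.66; and for the difference, Thbd 0.31, Procr 0.086, Tfpi 0.10 and Plat 0.24. Equal totals gave Procr 0.12 (diet, mesentery), Tfpi 0.049 and Plat 0.072 (tissue, chow). TMM gave Procr 0.0036 and Plat 0.017, and edgeR Procr 0.0104, Tfpi 0.0081 and Plat 0.075, in the same comparisons, and DESeq2 gave Plat 0.0203 on chow. Libraries 50 to 53 alone gave Thbd 0.066 (difference), Tfpi 0.037 and Plat 0.26 (tissue, chow), and Plat 0.0066 (diet, epididymal fat) and 0.022 (tissue, high fat diet). Array weights gave Thbd 0.029 (difference), Procr 0.28 (diet, mesentery), Tfpi 0.048 and Plat 0.073 (tissue, chow) and Plat 0.18 (diet, epididymal fat). Leaving out each library in turn gave ranges of -0.015 to 1.097 for F8 and -0.17 to 0.081 for Procr (diet, mesentery), -0.18 to 0.25 for Plat (diet, epididymal fat), -0.15 to 0.059 for Tfpi and -0.27 to 0.16 for Plat (tissue, chow), -0.29 to 0.0198 for Plat (tissue, high fat diet), and -0.23 to 0.13 for Thbd and -0.33 to 0.10 for Plat (difference). Depth limits Plau in mesentery most, where its values lie near the floor of 3 reads.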
